A study of Rattus norvegicus with 24 samples.

Results

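Fatty acids are the main fuel of the adult heart, and 9 genes of their uptake and mitochondrial beta-oxidation were followed here in the heart septum of rats. The genes were Cd36, Cpt1a, Cpt1b, Acadm, Acadvl, Hadha, Hadhb, Ppara and Ppargc1a. They were taken by Ensembl gene ID, with each ID required to lie on its expected chromosome. All 9 were found among the 30562 genes of the count table, and all 9 passed the filter on low counts that left 17347 genes for testing. RNA-seq was run on the septum of 24 Sprague-Dawley rats on day 28 after ischemia-reperfusion injury of the heart, with 1 library per rat and 6 rats in each of 4 groups. In the BATx+Leptin group (ablation rats) the brown adipose tissue, BAT, had been ablated and leptin was infused into the brain ventricles. In the BATsx+Leptin group (denervation rats) the sympathetic supply of BAT had been removed and leptin was given in the same way. The intactBAT+Leptin group (intact leptin rats) had intact BAT and leptin, and the intactBAT+Vehicle group (vehicle rats) had intact BAT and vehicle. Every rat had an injured heart and a brain cannula. No group with operated BAT received vehicle, so ablation and denervation were seen under leptin alone. The comparisons ask how hearts under leptin differed from hearts under vehicle with BAT intact. They also ask how hearts under leptin differed when BAT was removed or denervated. Whether leptin acted otherwise in operated rats cannot be estimated from these groups.

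Long-chain fatty acids enter the cardiac muscle cell partly through the membrane protein CD36. They are activated to acyl-CoA and carried into mitochondria by the carnitine shuttle, whose first and rate-setting step is carnitine palmitoyltransferase 1. Inside, beta-oxidation shortens the chain in repeated rounds of dehydrogenation, hydration, a further dehydrogenation and thiolysis. The nuclear receptor PPARα and the coactivator PGC-1α are known regulators of these genes in heart.

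The sequences upstream of 4 members are shown. Acadm, Ppargc1a and Acadvl hold a match to a searched element, and Hadha shares most of its sequence with Hadhb. They are from RefSeq on the GRCr8 build, which is not the build of the counts, and each ends at the base before the annotated start. RefSeq promoters were found for 8 members; Cpt1b had none. Capitals mark the cyclic AMP response element TGACGTCA in Acadm and Ppargc1a and the nuclear receptor half-site AGGTCA in Acadvl. The Hadha sequence carries no capitals.
Acadm, chr2:245542865-245543114, minus strand: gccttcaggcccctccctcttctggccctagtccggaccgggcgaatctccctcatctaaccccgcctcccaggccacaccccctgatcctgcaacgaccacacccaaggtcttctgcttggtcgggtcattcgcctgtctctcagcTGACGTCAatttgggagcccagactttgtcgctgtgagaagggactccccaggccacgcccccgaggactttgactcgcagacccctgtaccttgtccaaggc
Ppargc1a, chr14:63634058-63634307, plus strand: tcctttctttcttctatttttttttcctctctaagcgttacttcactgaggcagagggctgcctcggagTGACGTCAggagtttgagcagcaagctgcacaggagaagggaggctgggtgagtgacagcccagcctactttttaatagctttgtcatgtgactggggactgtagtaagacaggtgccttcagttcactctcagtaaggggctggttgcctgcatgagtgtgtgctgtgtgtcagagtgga
Acadvl, chr10:55236706-55236955, minus strand: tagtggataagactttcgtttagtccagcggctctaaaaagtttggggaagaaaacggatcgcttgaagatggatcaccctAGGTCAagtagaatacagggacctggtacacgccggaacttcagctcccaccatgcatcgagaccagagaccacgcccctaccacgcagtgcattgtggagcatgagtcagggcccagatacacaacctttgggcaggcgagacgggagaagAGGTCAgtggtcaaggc
Hadha, chr6:31907551-31907800, plus strand: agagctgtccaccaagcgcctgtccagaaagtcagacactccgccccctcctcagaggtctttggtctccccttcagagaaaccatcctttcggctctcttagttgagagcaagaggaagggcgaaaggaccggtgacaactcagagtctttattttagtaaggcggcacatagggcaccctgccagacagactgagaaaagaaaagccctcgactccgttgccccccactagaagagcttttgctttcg
Both strands were searched over the 250 bases before each start. TGACGTCA was found once each in Acadm, beginning at position -103 (the base before the start being -1), and in Ppargc1a, at -181, which is 2 of 8 members against 1.59% of 33469 promoters of that length. AGGTCA was found at -169 and -17 in Acadvl and in no other member, 1 of 8 against 14.1% of promoters. A direct repeat of AGGTCA spaced by 1 base, known as DR1 (0.0508% of promoters), and the longer element TCAAGGTCA (0.388%) were found in 0 of 8 members. Both contain AGGTCA. Only exact letters were searched, so near matches were not counted. In Acadvl the AGGTCA at -17 is followed, after 1 base, by tggtca, which differs from the half-site in 1 letter. The share of promoters with such a near match was not computed. Hadha and Hadhb lie head to head with 300 bases between their RefSeq starts, so most of the Hadha sequence is also the Hadhb upstream sequence read from the other strand. These matches describe letters in these windows and nothing more.

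The libraries held 71587993 to 122910706 reads assigned to genes. They fell into 2 sets before any comparison. PC1 of the log2 levels held 45.9% of the variance and set the 7 rats with the highest rat numbers in the labels apart from the 17 others, and that boundary was read from these data. The high-numbered set held 1 ablation, 2 denervation, 1 intact leptin and 3 vehicle rats, so it was spread unevenly over the groups. The labels do not say what the rat number stands for beyond the animal. Long genes were relatively higher in the high-numbered rats: a length gradient (centred log2 level of the longest against the shortest genes) ran from 0.171 to 0.517 in them and from -0.425 to 0.177 in the others. The share of reads from mitochondrial genes did not separate the sets (26.4% to 35.2% and 23.1% to 45.9%). Between groups this share was 23.7% to 29.8% in denervation rats and 33.3% to 36.6% in vehicle rats, without overlap. Ablation rats (23.1% to 45.9%) and intact leptin rats (24.4% to 41.1%) overlapped both. The TMM factors, which enter every scaled level given here, did separate the sets. They were 0.699 to 0.903 in the high-numbered rats and 0.935 to 1.27 in the others. Each comparison is therefore given as designed, with a 2-level rat-number term in the model, and in the low-numbered rats alone. The term takes the difference between the sets to be the same in all 4 groups, which was not tested. For some members, such as Acadm in denervation against intact leptin rats, the group difference had opposite signs in the 2 sets. For others it had the same sign.

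Cd36 encodes the fatty acid translocase of the cell membrane (ENSRNOG00000005906, chr4:17354466-17513903 on mRatBN7.2, plus strand, 6534 bp of exons). Levels are in CPM, reads scaled to library size with TMM factors. Cd36 stood at 24.5 to 112 CPM in ablation rats (median 35.4), 12.6 to 143 in denervation rats (median 46.7), 13.5 to 240.0 in intact leptin rats (median 38.6) and 26.6 to 179 in vehicle rats (median 96.8). All 4 groups overlapped, and in each group the high-numbered rats held the highest values. Its levels differed 19.0-fold between the lowest and the highest library. In these bulk samples, fewer cells of a type and less RNA per cell cannot be told apart.

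Cpt1a and Cpt1b encode the liver and muscle isoforms of carnitine palmitoyltransferase 1. Cpt1a (ENSRNOG00000014254, chr1:200565613-200627055, plus strand, 4187 bp) had 30.96 to 60.4 CPM in ablation rats (median 46.9), 37.6 to 56.6 in denervation rats (median 44.0), 36.5 to 86.5 in intact leptin rats (median 69.5) and 38.4 to 92.7 in vehicle rats (median 63.1). It was the steadiest member, with a 2.99-fold range over the 24 libraries. Cpt1b (ENSRNOG00000010438, chr7:120491354-120500404, minus strand, 2829 bp) had 127 to 446 CPM in ablation rats (median 149), 179 to 620 in denervation rats (median 217), 239 to 820 in intact leptin rats (median 357) and 159 to 691 in vehicle rats (median 407). The groups overlapped for both isoforms. Per exonic length Cpt1b was above Cpt1a in all 24 libraries, by 3.89-fold to 19.1-fold, the muscle isoform being the higher in each heart.

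Acadm and Acadvl encode the medium-chain and very-long-chain acyl-CoA dehydrogenases, which take the first step of each round. Acadm (ENSRNOG00000009845, chr2:242858865-242883147, minus strand, 2369 bp) had 34.4 to 431 CPM in ablation rats (median 84.0), 61.001 to 518 in denervation rats (median 167), 55.6 to 1092 in intact leptin rats (median 67.5) and 77.2 to 997 in vehicle rats (median 476). Its 31.7-fold range over libraries was the widest of the 9. Acadvl (ENSRNOG00000018114, chr10:54732469-54738075, minus strand, 2406 bp) had 182 to 397 CPM in ablation rats (median 225), 286 to 417 in denervation rats (median 353), 322 to 679 in intact leptin rats (median 365) and 260 to 604 in vehicle rats (median 394). Acadvl is overlapped by 2 genes on the opposite strand. The reads counted for ENSRNOG00000017915 came to 2.73% of those of Acadvl, and those for ENSRNOG00000035519 to 0.0306%. Without strand in the counting, reads from a stretch shared with Acadvl cannot be told apart by strand. All groups overlapped for both dehydrogenases.

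Hadha and Hadhb encode the α and β subunits of the mitochondrial trifunctional protein, which carries out the remaining steps for long chains. Hadha (ENSRNOG00000024629, chr6:26187956-26227869, plus strand, 2788 bp) had 97.8 to 426 CPM in ablation rats (median 165), 193 to 574 in denervation rats (median 266), 175 to 977 in intact leptin rats (median 221) and 182 to 901 in vehicle rats (median 482). Hadhb (ENSRNOG00000010800, chr6:26153578-26184869, minus strand, 2207 bp) had 55.2 to 621 CPM in ablation rats (median 76.3), 64.7 to 799 in denervation rats (median 96.4), 82.5 to 1425 in intact leptin rats (median 120) and 79.6 to 1181 in vehicle rats (median 513). Every group overlapped every other for both subunits. The highest values of each group came from its high-numbered rats.

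The regulators had the lowest mean CPM of the 9 members in both sets of rats. Per exonic length Cpt1a was above Ppara in 6 of the 7 high-numbered rats and in all 17 others. Ppara (ENSRNOG00000021463, chr7:116832756-116895346, plus strand, 2021 bp), the gene of the lipid-sensing receptor PPARα, had 1.73 to 11.0 CPM in ablation rats (median 3.40), 1.59 to 20.6 in denervation rats (median 5.39), 3.42 to 19.0 in intact leptin rats (median 5.17) and 3.49 to 37.7 in vehicle rats (median 12.2). Ppargc1a (ENSRNOG00000004473, chr14:58861144-59512656, plus strand, 3234 bp), the gene of PGC-1α, had 2.09 to 16.5 CPM in ablation rats (median 3.20), 2.37 to 35.7 in denervation rats (median 6.82), 2.45 to 17.9 in intact leptin rats (median 4.60) and 3.26 to 39.9 in vehicle rats (median 13.8). The groups overlapped for both. Ppara rested on 145 to 3197 reads per library and Ppargc1a on 201 to 3429, so counting error was small beside the spread between rats. Over the 6 comparisons between whole groups, 0 of 9 members had groups that did not overlap. Of all tested genes 1.46% did not overlap between intact leptin and vehicle rats, 0.911% between ablation and intact leptin rats, 0.951% between denervation and intact leptin rats, 0.242% between ablation and vehicle rats, 0.306% between denervation and vehicle rats and 0.19% between ablation and denervation rats.

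**Figure D1:**
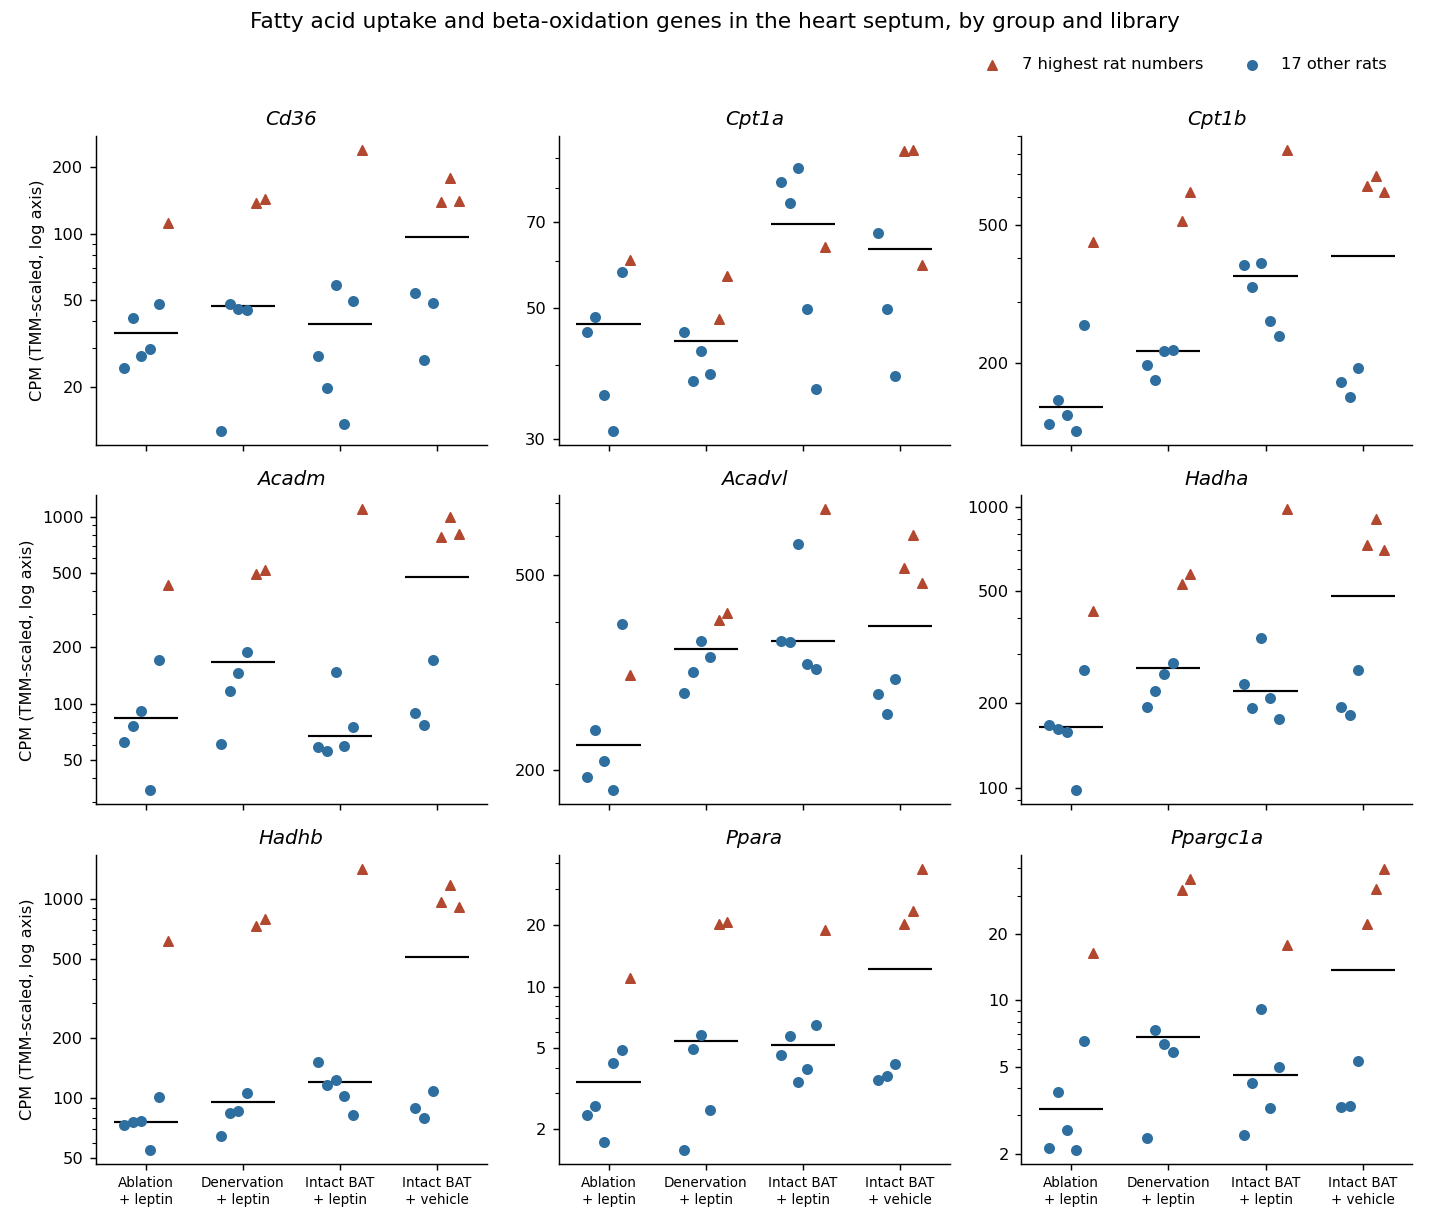
CPM (TMM-scaled, log axis) of the 9 genes in each library by group; triangles are the 7 rats with the highest rat numbers, circles the 17 others, and bars group medians. The triangles lie above all circles for Cd36, Cpt1b, Acadm, Hadha, Hadhb, Ppara and Ppargc1a, and mix with them for Cpt1a and Acadvl.

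The difference between the sets of rats is described without a test, since the sets were read from the same data. On the log2 scale, high-numbered minus low-numbered rats, Hadhb differed by 3.34, Acadm by 2.96, Ppargc1a by 2.74, Ppara by 2.50 and Cd36 by 2.19. Hadha differed by 1.71, Cpt1b by 1.55, Acadvl by 0.65 and Cpt1a by 0.43. The median was 2.19 over the 9 members and -0.06 over all tested genes. For 7 members the sets did not overlap, all with the high-numbered rats above, while 18.1% of all tested genes had non-overlapping sets in that direction. Hadhb had 621 to 1425 CPM in the high-numbered rats and at most 153 CPM in the others. Within each of the 4 groups its mean in the high-numbered rats was 8.12-fold to 12.3-fold that in the low-numbered rats, and Acadm differed by 3.95-fold to 13.8-fold. Cpt1a, by contrast, differed by 0.963-fold to 1.57-fold within groups. What the sets stand for was not tested.

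Ratios between members differed with the sets as well. Per exonic length, Hadha stood at 0.542 to 0.605 of Hadhb in the 7 high-numbered rats and at 1.21 to 2.36 of Hadhb in the 17 others, although their proteins form one complex. The ratio of Acadm to Acadvl was 1.24 to 1.71 in the high-numbered rats and 0.155 to 0.569 in the others. Cpt1b stood at 10.3-fold to 19.1-fold of Cpt1a in the high-numbered rats and at 3.89-fold to 9.70-fold in the others. None of these ratios overlapped between the sets. Hadha, Hadhb, Acadm and Cpt1b each had non-overlapping sets by themselves, and the sets were read from the same data. How often ratios of other gene pairs separate these sets was not computed.

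The order of the members followed the sets too. In the high-numbered rats the mean level per kb of exon fell in the order Hadhb (430 CPM per kb), Acadm, Hadha, Cpt1b, Acadvl, Cd36, Cpt1a, Ppara and Ppargc1a (8.67 CPM per kb). In the others it ran from Acadvl (131 CPM per kb) through Cpt1b, Hadha, Hadhb, Acadm, Cpt1a, Cd36 and Ppara to Ppargc1a (1.36 CPM per kb). Some neighbours were not separated: among the low-numbered rats Cpt1b was above Hadha in 7 of 17 libraries and Hadhb above Acadm in 10 of 17.

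**Figure D2:**
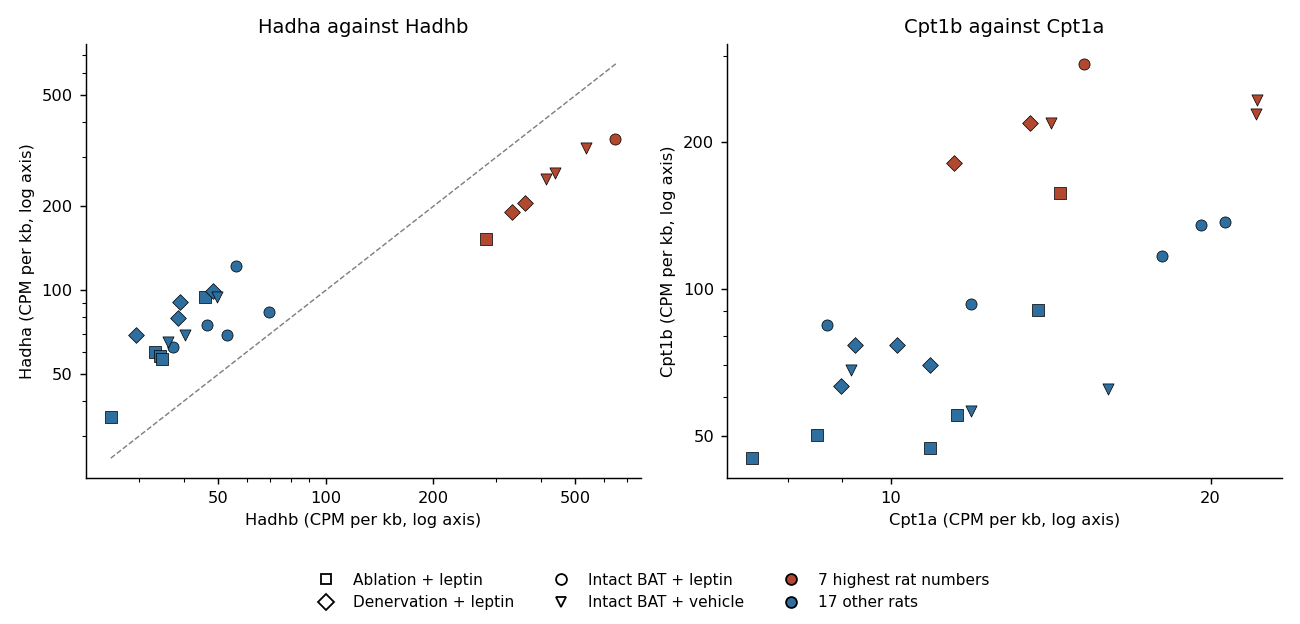
Level per kb of exon (CPM per kb, log axes) of Hadha against Hadhb, with a dashed line of equality, and of Cpt1b against Cpt1a, 1 point per library. The 7 high-numbered rats lie below the line of equality and the 17 others above it, and the high-numbered rats have the higher Cpt1b for a given Cpt1a.

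Ablation rats were compared with intact leptin rats to see the hearts under leptin with and without BAT. In the low-numbered rats Cpt1b had 127 to 256 CPM in the 5 ablation rats (median 142) and 239 to 389 in the 5 intact leptin rats (median 331). Acadvl had 182 to 397 CPM in those ablation rats (median 208) and 322 to 577 in those intact leptin rats (median 364). Hadhb had 55.2 to 101.2 CPM in the ablation rats (median 76.0) and 82.5 to 153 in the intact leptin rats (median 117). For all 3 genes the ablation rats were mostly the lower, and the groups overlapped. Of the 9 members 0 had groups without overlap in these rats, beside 4.28% of all genes. Over all 12 rats as designed, edgeR with Benjamini-Hochberg adjustment over all genes called 0 of 9 members, beside 3.03% of all genes, with 3 members and 3118 of 17347 genes at an unadjusted p below 0.05. All 9 members were lower on average, with a median log2 difference of -0.74 against -0.02 over all genes. Acadvl had the smallest p (log2 difference -0.78 ± 0.25 SE, edgeR adjusted p = 0.0861), and it was called when ablation replicate 5 was left out (-0.95, edgeR adjusted p = 0.0304), beside 5.56% of all genes.

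With the rat-number term 3 members were called lower in ablation rats, beside 18.6% of all genes called in either direction. Cpt1b differed by -0.96 ± 0.16 (log2, SE; edgeR adjusted p = 0.00155), Acadvl by -0.75 ± 0.18 (edgeR adjusted p = 0.00766) and Hadhb by -0.70 ± 0.16 (edgeR adjusted p = 0.00645). Hadha (-0.57 ± 0.21, edgeR adjusted p = 0.0535) and Cpt1a (-0.52 ± 0.20, edgeR adjusted p = 0.0659) missed the threshold. Cd36, Acadm, Ppara and Ppargc1a did not pass. In the low-numbered rats alone the same 3 genes were called, beside 11.4% of all genes: Cpt1b -0.98 (edgeR adjusted p = 0.0159), Acadvl -0.68 (0.0498) and Hadhb -0.60 (0.0478). When the length gradient was fitted as well, Hadha was called as well (-0.73, edgeR adjusted p = 0.0341), beside 7.47% of all genes. The 3 calls with the term were kept with each of the 12 libraries left out in turn, at adjusted p up to 0.00576 for Cpt1b, 0.0247 for Acadvl and 0.0219 for Hadhb, beside 9.43% to 24.5% of all genes. They were lost when the 4 intact leptin rats with the lowest numbers (56 to 62) were left out, which leaves 2 intact leptin rats. The differences were then -0.64 for Cpt1b, -0.68 for Acadvl and -0.58 for Hadhb (edgeR adjusted p = 0.219, 0.258 and 0.300), beside 0.027% of all genes called. In the low-numbered set 4 of the 5 intact leptin rats had lower numbers than any ablation rat, and the part of rat number within the set was not tested.

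Intact leptin rats were compared with vehicle rats to see leptin with BAT intact. As designed 0 of 9 members were called (edgeR, adjusted p), beside 0.674% of all genes, and 0 members and 4059 of 17347 genes had an unadjusted p below 0.05. On average 8 of 9 members were lower, with a median log2 difference of -0.52 against -0.03 over all genes. Ppargc1a had the smallest p (-1.34 ± 0.75, 95% interval -2.91 to 0.23, edgeR adjusted p = 0.273). Acadm was called when intact leptin replicate 6, the high-numbered rat of that group, was left out (-2.62, edgeR adjusted p = 0.0244), as 1 of 9 members beside 25.4% of all genes. The vehicle group held 3 high-numbered rats and the intact leptin group 1, so that fit left high-numbered rats in the vehicle group only. With the rat-number term Acadm differed by -0.77 to -0.19 over the 12 fits that left out 1 library, at edgeR adjusted p of 0.207 or more. In the low-numbered rats alone Acadm differed by -0.50 (edgeR adjusted p = 0.567). With the rat-number term the median over members was 0.08, and Cpt1b was called higher (0.67 ± 0.17, edgeR adjusted p = 0.0280), beside 6.13% of all genes called in either direction. Among low-numbered rats Cpt1b had 239 to 389 CPM in the 5 intact leptin rats and 159 to 193 CPM in the 3 vehicle rats, without overlap. Acadvl did not overlap either, so 2 of 9 members stood apart in these rats, beside 13.2% of all genes. In these rats alone Cpt1b was not called (0.87 ± 0.23, edgeR adjusted p = 0.142), where 0 genes were called at all and 3431 had an unadjusted p below 0.05. The call with the term was lost in 5 of 12 fits that left out 1 library (intact leptin replicate 1 or 2, vehicle replicate 1, 2 or 3), with adjusted p between 0.0116 and 0.0938 over the 12 fits, beside 0.559% to 12.7% of all genes. Without the 4 lowest-numbered intact leptin rats Cpt1b differed by 0.38 (edgeR adjusted p = 0.586), beside 0.0973% of all genes called.

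Denervation rats were compared with intact leptin rats. Among low-numbered rats Cpt1b had 179 to 217 CPM in the 4 denervation rats and 239 to 389 CPM in the 5 intact leptin rats, without overlap. It was the 1 member of 9 to do so, beside 7.87% of all genes. Hadhb had 64.7 to 107 CPM in those denervation rats and 82.5 to 153 in those intact leptin rats, with overlap. As designed edgeR called 0 of 9 members and 0 genes in all (0%), with 1 member and 2836 genes at an unadjusted p below 0.05. That member was Cpt1a (-0.55 ± 0.23, 95% interval -1.03 to -0.07, edgeR adjusted p = 0.247). With the rat-number term Cpt1b (-0.66 ± 0.16, edgeR adjusted p = 0.0292) and Hadhb (-0.54 ± 0.16, edgeR adjusted p = 0.0476) were called lower, beside 6.65% of all genes called in either direction. Cpt1a narrowly missed (-0.64 ± 0.20, edgeR adjusted p = 0.0536). With 1 library left out and the term kept, Cpt1b was called in 5 of 12 fits (denervation replicate 1 or 6 or intact leptin replicate 3, 5 or 6 left out), Cpt1a in 3 of 12 (denervation replicate 1 or intact leptin replicate 5 or 6) and Hadhb in 1 of 12 (intact leptin replicate 5). Over the 12 fits the adjusted p ran from 0.0104 to 0.0822 for Cpt1b and from 0.0158 to 0.133 for Hadhb, beside 0.0057% to 13.3% of all genes called. With the length gradient fitted as well, both calls were lost (Cpt1b -0.66, edgeR adjusted p = 0.0762; Hadhb -0.57, edgeR adjusted p = 0.103), beside 0.0115% of all genes. In the low-numbered rats alone 0 of 9 members were called, beside 0.00559% of all genes, and without the 4 lowest-numbered intact leptin rats 0 of 9, beside 0.027%.

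In the 3 other comparisons edgeR called 0 of 9 members and 0 genes (0%), as designed, with the rat-number term and in the low-numbered rats alone. Ablation rats stood below vehicle rats for all 9 members as designed, with a median log2 difference of -1.22 against 0.03 over all genes, and 6 members and 1892 genes had an unadjusted p below 0.05. Acadvl had the smallest p (-0.68 ± 0.25, edgeR adjusted p = 0.457), and Ppara differed by -1.79 ± 0.70. With the term the median over members was -0.41, against 0.025 over all genes, and in the low-numbered rats it was -0.26, with all 9 members still lower, 0 members and 665 genes at an unadjusted p below 0.05. Denervation rats stood below vehicle rats for all 9 members too as designed, with a median of -0.53 against -0.0094 over all genes, and 1 member, Cpt1a, and 348 genes had an unadjusted p below 0.05 (-0.57 ± 0.23, edgeR adjusted p = 0.9998). With the term the median was -0.12 with 2 of 9 members higher, and in the low-numbered rats it was 0.16 with 5 of 9 higher, 0 members and 395 genes having an unadjusted p below 0.05. Between the operated groups, ablation rats were lower than denervation rats for 8 of 9 members, with a median of -0.69 against 0.0088 over all genes as designed, and 0 members and 778 genes had an unadjusted p below 0.05. Ppargc1a differed there by -1.41 ± 0.75, with a 95% interval from -2.98 to 0.16, and by -0.74 ± 0.33 with the term (edgeR adjusted p = 0.569). The median was -0.35 with the term and -0.31 in the low-numbered rats, where 8 of 9 members were again lower and 0 members and 1388 genes had an unadjusted p below 0.05. The 6 comparisons share groups and are not independent of each other.

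**Figure D3:**
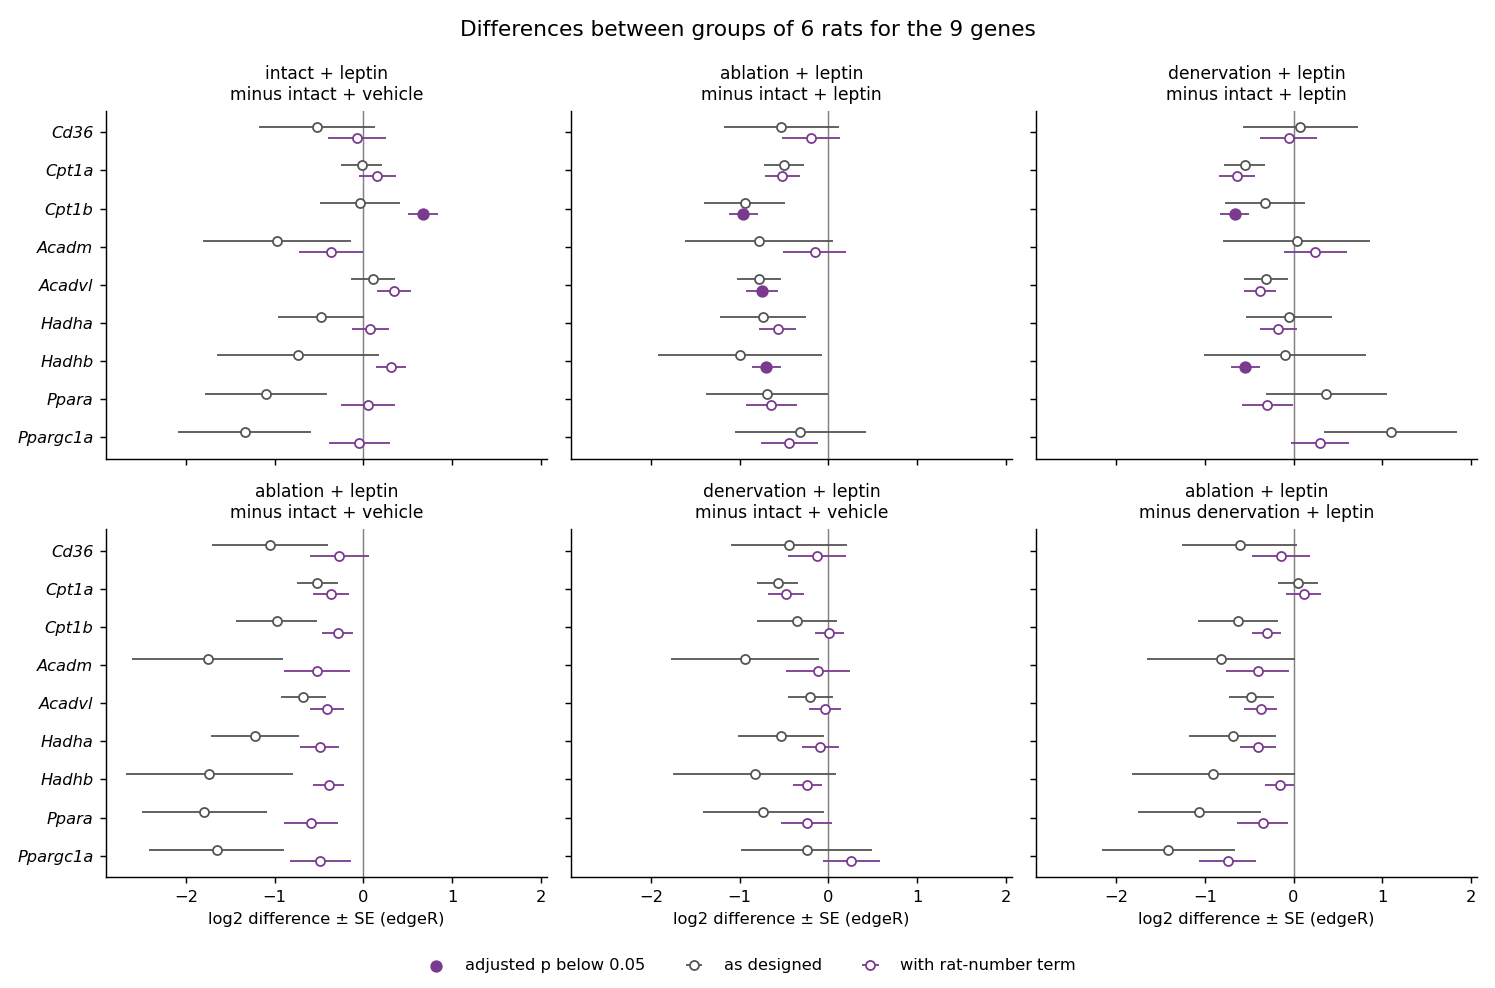
Log2 difference ± SE from edgeR for the 9 genes in the 6 comparisons of 6 rats against 6, as designed (grey) and with the rat-number term (purple); filled points have an adjusted p below 0.05. With the term the error bars shorten, and the filled points are Cpt1b, Acadvl and Hadhb (ablation against intact leptin), Cpt1b and Hadhb (denervation against intact leptin) and Cpt1b (intact leptin against vehicle).

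Correlations between members were taken within each set, since the sets separate the libraries, and are given as a description; each set pools the 4 groups, and the depth and scaling of a library enter both genes of a pair. Over the 17 low-numbered rats the 36 pairs had a median Pearson r of 0.45, from -0.01 for Cd36 with Cpt1a to 0.89 for Cpt1b with Acadvl. Over the 7 high-numbered rats the median was 0.54, from -0.17 for Cpt1a with Ppargc1a to 1.00 for Acadvl with Hadha. Ppargc1a with Acadm had r = 0.80 among the low-numbered rats and r = 0.01 among the high-numbered ones. Cd36 with Cpt1b had r = 0.91 among the high-numbered rats and r = 0.03 among the low-numbered ones. These are 2 of 36 pairs, no interval was computed, and 7 libraries fix r only loosely. Whether r differed between the sets was not tested. Outside the 9, 13374 genes were ranked by the likeness of their log2 level to the members' mean over the 24 libraries. The 2 highest were ENSRNOG00000018145 on chromosome 3 (r = 0.99) and ENSRNOG00000016214 on chromosome 2 (r = 0.98). Of those 13374 genes, 693 had r above 0.9, so a high r was not particular to these 2. Values of r over all libraries carry the difference between the sets. Over the 17 low-numbered rats the 2 genes had r = 0.88 and 0.95, and no share of other genes was computed there.

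**Figure D4:**
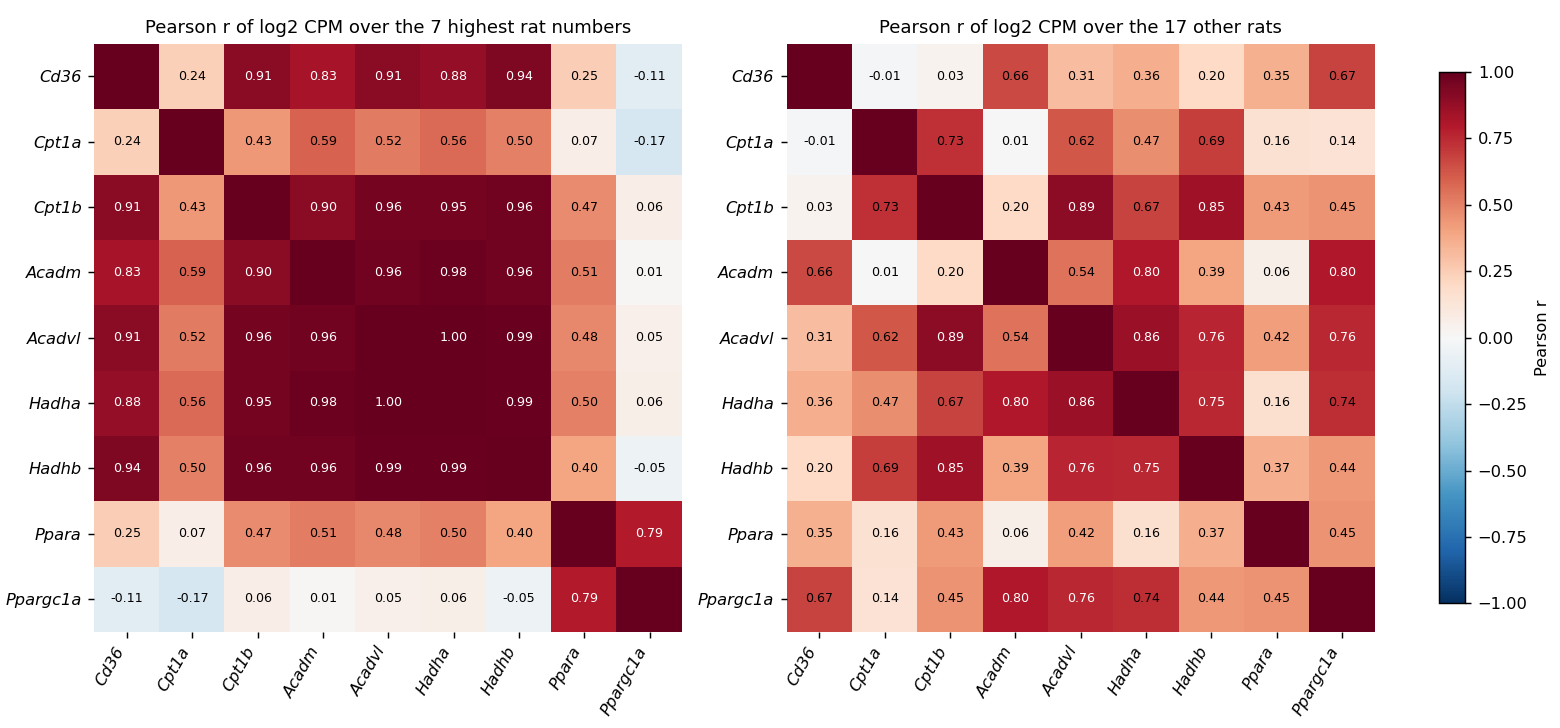
Pearson r between log2 CPM of each pair of the 9 genes over the 7 high-numbered rats (left) and over the 17 others (right), on a colour scale from -1 to 1. Cpt1b, Acadm, Acadvl, Hadha and Hadhb form a block at 0.90 to 1.00 on the left, and on the right the same pairs range from 0.20 to 0.89.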

How the data were processed

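RNA was extracted from the septum and sequenced as 2 × 100 bp read pairs, per the labels' protocols. STAR 2.7.10a is the aligner named in the submitters' processing notes. The authors deposited raw read counts per gene, made with featureCounts 2.0.6 on the mRatBN7.2 build with Ensembl annotation 113, per the file headers (the processing notes name version 2.0.2). The command in the header sets no strand option and no counting of pairs, so both mates of a pair can count. The 5 count columns that match no sample in the labels were not used. The gene table at hand paired 0 of 30562 IDs with a symbol. The members' symbols come with their list of IDs, and lists of other pathway genes and of cell type markers were not run, so the tissue was not checked against its markers.

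Counts were scaled by TMM, filtered by filterByExpr on the groups and fitted with edgeR 4.0.16 (R 4.3.3, robust quasi-likelihood), all 24 libraries in 1 model, with Benjamini-Hochberg adjustment over the 17347 genes tested and a threshold of 0.05. Log2 levels used a prior count of 2. The steps were checked on simulated data. DESeq2 1.42.0 and limma 3.58.1 (voom with quality weights) were alternatives, with other scalings, no filter, a replicate block, a rat-number term, a length gradient and libraries left out. The fit without 4 intact leptin rats was added after an earlier analysis of these data. The members, the lists, the rat-number boundary and the rules were chosen with earlier results of these data known. All 9 members are named, and the 2 genes most like them were taken by the highest correlation among genes with a mean of at least 1 CPM. The labels give each library its own rat number, so p-values measure the spread between rats. Library totals ran from 71587993 to 122910706 reads, and levels of 0 were met in no member. Sequences are from RefSeq, GRCr8.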

Additional observations from a re-analysis of the deposited data

Results flagged for a closer look

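In the 36 combinations of 9 genes and 4 groups of 6 rats, 4 had a highest value set apart from the next. Its gap, on the log2 scale, was past Dixon's 95% critical value for 6 samples, which chance passes in about 1 in 20 groups. The combinations share the same rats and the genes are correlated, so the 4 flags are not independent of each other. Acadm stood at 1092 CPM in intact leptin replicate 6, Hadhb at 1425 CPM and Ppara at 19 CPM in the same rat, and Hadhb at 621 CPM in ablation replicate 6. Both rats are the only high-numbered rat of their group. The other groups hold 2 and 3 high-numbered rats, which can hide each other from this rule. Their part in the group differences is given by the values with the rat-number term and in the low-numbered rats alone.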

How the results depend on the processing

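As designed, 0 of 9 members were called in each of the 6 comparisons. RLE scaling, TMM without mitochondrial genes, no filter on low counts and models of only the 2 groups compared also gave 0 in all 6. Intact leptin against vehicle had 1.18%, 0.728%, 0.0125% and 0.0366% of all genes called under these settings, in that order. Ablation against intact leptin had 2.96%, 3.07%, 0.972% and 0%. In the other comparisons these settings called 0% of all genes. DESeq2 called 1 member (Acadvl) in ablation against intact leptin, beside 7.82% of all genes. Elsewhere it called 0 of 9. All genes called were 9.47% in intact leptin against vehicle, 2.95% in denervation against intact leptin and at most 0.121% in the rest. Voom with quality weights called 6 members in intact leptin against vehicle, 2 in ablation and 1 in denervation against intact leptin, and 9 each in ablation and denervation against vehicle, beside 60.7%, 17.4%, 22.8%, 55.7% and 46.4% of all genes. The rat-number term called 1, 3 and 2 members (intact leptin against vehicle, then ablation and denervation against intact leptin), with the length gradient 1, 4 and 0 (beside 2.47%, 7.47% and 0.0115% of all genes), and the low-numbered rats alone 0, 3 and 0. The replicate block called 2 members (Cpt1b and Acadvl) in ablation against intact leptin, beside 5.89% of all genes. Elsewhere the block called 0 of 9. All genes called were 21% in intact leptin against vehicle, 2.95% in denervation against intact leptin and at most 0.00576% in the rest. The labels do not say that a replicate number marks shared rats or days. Of the 6 same-numbered pairs in a comparison, 3 to 5 had deviations correlated above 0.1 and not all 6. Of 24 libraries 9 correlated best with their own number, and no level for chance was computed. The high-numbered rats were replicates 4 to 6 of their groups, so these correlations can carry the difference between the sets. The block was kept as an alternative. With 1 library left out and no term, the counts ran from 0 to 1 in intact leptin against vehicle. They ran from 0 to 1 in ablation and were 0 in denervation against intact leptin. Of all genes 0.0057% to 25.4%, 0.0399% to 5.91% and 0% to 3.69% were called in these fits. With the term the counts ran from 0 to 1, 3 to 6 and 0 to 3 in the same order. The shares of all genes beside them were 0.559% to 12.7%, 9.43% to 24.5% and 0.0057% to 13.3%. The cause of these shifts was not tested.

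Of 54 log2 differences, 28 kept their sign under every alternative run. In intact leptin against vehicle, Cpt1a was 0.0038 under RLE scaling and under DESeq2, Acadvl was -0.34 under voom, Cpt1b was 0.11 with the replicate block, and Cpt1a and Cpt1b were 0.031 and 0.020 with only the 2 groups. With the rat-number term Cpt1a was 0.16, Cpt1b 0.67, Hadha 0.077, Hadhb 0.31 and Ppara 0.052. With the length gradient added Cpt1a was 0.19, Cpt1b 0.67, Hadha 0.17 and Hadhb 0.33. In the low-numbered rats Cpt1a was 0.36, Cpt1b 0.87, Hadha 0.12, Hadhb 0.32, Ppara 0.36 and Ppargc1a 0.28. Without the 4 intact leptin rats Cd36 was 0.44, Cpt1b 0.38, Hadha 0.078, Hadhb 0.20 and Ppara 0.16. With 1 library left out the ranges were -1.54 to 0.087 for Cd36, -0.14 to 0.27 for Cpt1a, -0.37 to 0.74 for Cpt1b, -0.064 to 0.40 for Acadvl, -1.11 to 0.15 for Hadha, -2.27 to 0.39 for Hadhb, -1.68 to 0.20 for Ppara and -1.88 to 0.13 for Ppargc1a.

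In ablation against intact leptin, Cd36 and Acadm were 0.37 and 0.17 under voom and 0.013 and 0.14 in the low-numbered rats, and Cpt1a was 0.11 without the 4 intact leptin rats. With 1 library left out the ranges were -0.996 to 0.48 for Cd36, -1.51 to 0.87 for Acadm, -2.13 to 0.53 for Hadhb and -1.03 to 0.23 for Ppargc1a. In denervation against intact leptin, Hadha was 0.22 under voom, 0.017 with the replicate block and 0.040 in the low-numbered rats. Ppara was -0.17 under voom, -0.30 with the term, -0.055 with the length gradient, -0.38 in the low-numbered rats and -0.41 without the 4 intact leptin rats. Cd36 was -0.055 with the term, -0.098 with the length gradient and -0.60 without the 4 rats, where Acadm was -0.16. With 1 library left out the ranges were -0.24 to 1.09 for Cd36, -0.73 to 0.016 for Cpt1b, -0.30 to 1.68 for Acadm, -0.26 to 0.57 for Hadha, -0.64 to 1.43 for Hadhb and -0.49 to 0.94 for Ppara.

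In denervation against vehicle, Cpt1b and Ppargc1a were 0.010 and 0.26 with the term, 0.0099 and 0.25 with the length gradient and 0.21 and 0.47 in the low-numbered rats, where Acadm was 0.19, Acadvl 0.21 and Hadha 0.16. With 1 library left out the ranges were -0.76 to 0.036 for Cd36, -0.65 to 0.064 for Cpt1b, -1.27 to 0.067 for Acadm, -0.30 to 0.028 for Acadvl and -0.72 to 0.40 for Ppargc1a. In ablation against denervation Cpt1a ran from -0.040 to 0.20. The lowest count of a member in a library was 145 reads.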
